A study of Mus musculus with 7 samples.

Results

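A set of 10 genes that encode proteins of the satellite cell (SC) surface and its niche contacts were followed: Megf10, Chodl, Cd34, Vcam1, Cdh15, Sdc3, Sdc4, Met, Cxcr4 and Calcr. They were taken by name from a table of counts over 49568 gene symbols, in which all 10 were found once. Earlier results of these data were known when the genes were chosen. The muscle was gastrocnemius, of the calf, from male C57BL/6J animals, with 2 libraries at 4 weeks of age, 2 at 6 weeks and 3 at 8 weeks, made from total RNA depleted of ribosomal RNA. The study asked how muscle gene expression changes from prepuberty into adolescence. The titles of the 8-week libraries carry the word Ctl, which the study used for mice without CreER from its tamoxifen crosses. Whether these mice received tamoxifen or came from such a litter is not given in the sources used here, so any such difference cannot be told apart from age.

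SCs are the stem cells of skeletal muscle and lie between the fiber membrane and the basal lamina. They are recognized by the transcription factor Pax7 and, on living cells, by surface proteins that anchor them, bind matrix and growth factors, or receive signals that keep them quiescent or activate them. Several of these proteins are shared with other cells of muscle: Cd34 and Vcam1 with blood vessels, Cd34 with fibro-adipogenic progenitors, and syndecans, Met and Cxcr4 with many cell types. In whole muscle, fewer cells of a type and less RNA per cell cannot be told apart.

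Libraries held 30836057 to 41784144 counts, and 25.1% to 37.4% of a library came from mt-Rnr2, a mitochondrial ribosomal RNA. Replicate 2 at 8 weeks had the lowest share of mt-Rnr2 and stood farthest from its group, with a chi-square per gene of 100.5 and 142.8 against the other 8-week libraries, which differed from each other by 28.9. The count of surface genes called was the same with and without it in every comparison between ages. Levels are given as CPM, that is, counts set against the total of their library after scaling with TMM factors. The test was edgeR's quasi-likelihood F test, fitted once over the 7 libraries, and every adjusted p was corrected by the Benjamini-Hochberg method over the 14976 genes with enough counts. A gene was called at an adjusted p under 0.05. Whether libraries of different ages overlapped is given as a description only. The share of all genes tested without such overlap was not counted. All 10 surface genes were among those tested. The 4-week libraries serve in both comparisons with that age, so these comparisons are not independent of each other.

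Against 4 weeks, the muscle had less RNA of Megf10, Chodl and Cd34 at 6 weeks, and less of Megf10, Chodl, Cd34, Vcam1 and Sdc4 at 8 weeks. Met, the receptor of hepatocyte growth factor, was the 1 gene that was higher at 8 weeks. Cdh15, Sdc3, Cxcr4 and Calcr were called in no comparison. At 6 against 4 weeks 3 of 10 surface genes were lower and 0 were higher, where 6.9% of all genes tested were called (3.76% lower and 3.15% higher). At 8 against 4 weeks 5 of 10 were lower and 1 was higher, where 18.5% of all genes were called (8.95% lower and 9.53% higher). The median log2 fold change of the 10 genes was −0.40 at 6 against 4 weeks and −0.44 at 8 against 4 weeks, and the medians of all genes tested were both −0.01. At 8 against 6 weeks edgeR called 0 of 10, and 0.187% of all genes. In that comparison 3 surface genes had an unadjusted p under 0.05, all of them lower at 8 weeks, and DESeq2 and limma-voom each called 0. The median of the 10 genes was then 0.01, against 0.02 for all genes.

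**Figure D1:**
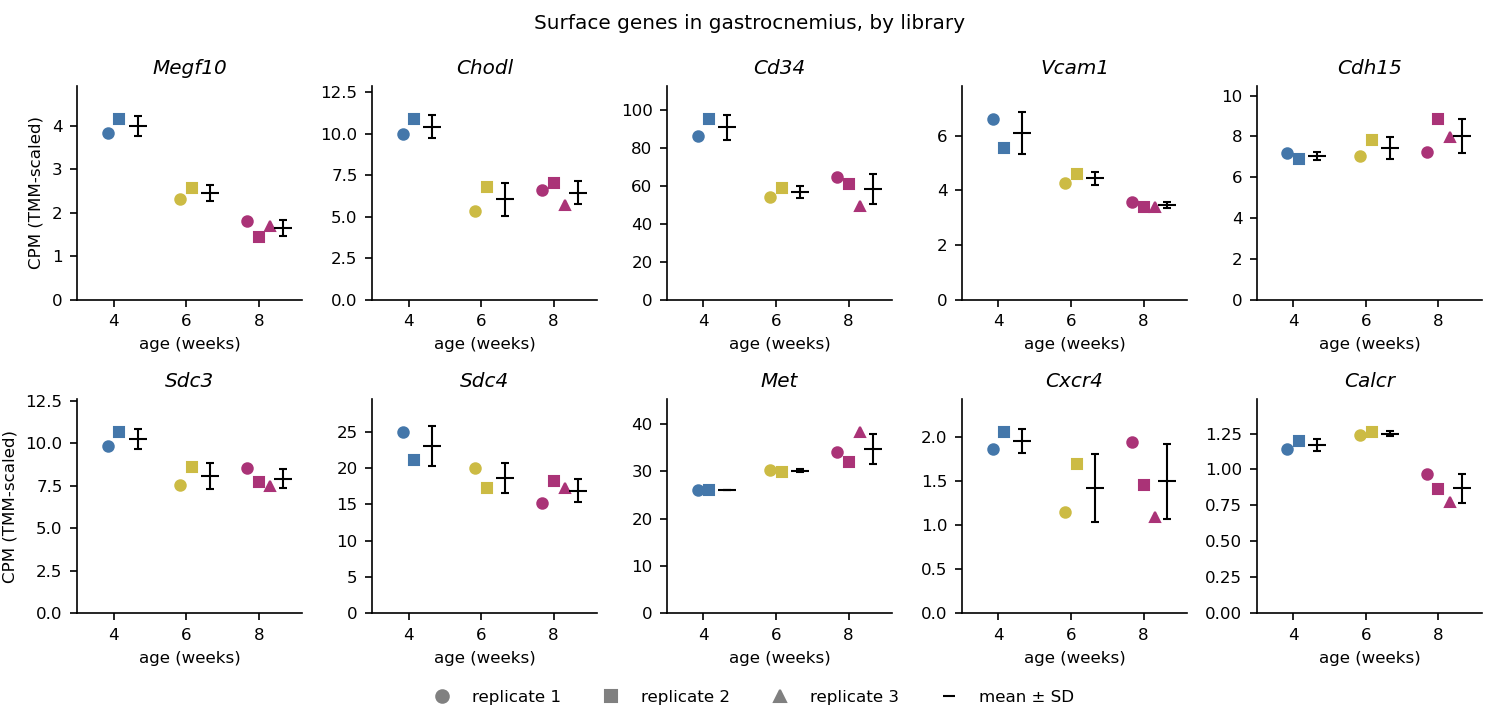
CPM of each surface gene (vertical axes from 0, TMM-scaled) in each library at 4, 6 and 8 weeks (horizontal axes); symbols mark replicates, and the bar beside them is the mean ± SD (n = 2, 2 and 3). The 4-week libraries stand above all later ones for Megf10, Chodl, Cd34, Vcam1, Sdc3 and Sdc4, below all later ones for Met, and overlap with the 6-week libraries for Cdh15. How often libraries of all genes tested separate in this way was not counted.

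The level of RNA per length of gene spanned a wide range. Per kb of exon, Cd34 was highest, with a mean of 9.21 CPM per kb over the 7 libraries, and Calcr lowest, with 0.272. Sdc4 followed Cd34 with 7.51 CPM per kb, then Met with 4.03, Cdh15 with 2.33, Sdc3 with 1.44 and Chodl with 1.36. Cxcr4 had 0.887, Vcam1 0.506 and Megf10 0.330 CPM per kb. Neighbors in the order of each age were then compared, and at 4 weeks none had overlapping ranges. At 6 weeks Cd34 overlapped with Sdc4, and Calcr with Megf10. At 8 weeks these pairs again overlapped, as did Sdc3 with Chodl and Chodl with Cxcr4. Places in the order also changed with age. Chodl stood above Sdc3 at 4 weeks, at 1.81 to 1.99 against 1.64 to 1.78 CPM per kb, and below it at 6 weeks, at 0.975 to 1.23 against 1.26 to 1.44 CPM per kb. Megf10 likewise stood above Calcr at 4 weeks, at 0.495 to 0.539 against 0.292 to 0.307 CPM per kb, and overlapped with it at 8 weeks, at 0.188 to 0.234 against 0.197 to 0.248.

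Some DNA around the starts of these genes is shown so that 2 genes that fell (Chodl and Cd34), the 1 that rose (Met) and 1 that was called in no comparison (Cdh15) can be set side by side. RefSeq promoter windows on GRCm38.p6, which reach from 250 bases before to 50 bases after the start that RefSeq gives, were matched for 8 of the 10 genes, and Megf10 and Vcam1 were not among them. The E-box CANNTG, the letters bound by myogenic factors such as MyoD and Myog among many others, is in capitals. It reads the same on both strands. The windows of Chodl (chr16:78930698-78930997, plus strand) and Cdh15 (chr8:122848124-122848423, plus strand) held 4 each, that of Met (chr6:17463707-17464006, plus strand) 2, and that of Cd34 (chr1:194938571-194938870, plus strand) none. The RefSeq start is the first base of the GENCODE gene for Chodl and lies 2 bases inside that gene for Cd34, 157 for Met and 408 for Cdh15, so the whole Cdh15 window lies within the gene as GENCODE bounds it.
Chodl: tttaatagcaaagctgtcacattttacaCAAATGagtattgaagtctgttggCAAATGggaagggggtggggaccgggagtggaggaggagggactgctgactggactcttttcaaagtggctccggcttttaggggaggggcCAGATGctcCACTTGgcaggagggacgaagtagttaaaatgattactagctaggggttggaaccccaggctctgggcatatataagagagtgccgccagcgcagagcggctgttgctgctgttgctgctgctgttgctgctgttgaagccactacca
Cdh15: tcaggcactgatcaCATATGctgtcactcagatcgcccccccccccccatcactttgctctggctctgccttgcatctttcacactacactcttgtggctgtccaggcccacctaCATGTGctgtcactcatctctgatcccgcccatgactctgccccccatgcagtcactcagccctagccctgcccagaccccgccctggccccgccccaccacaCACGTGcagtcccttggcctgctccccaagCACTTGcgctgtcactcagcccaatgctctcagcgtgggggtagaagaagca
Met: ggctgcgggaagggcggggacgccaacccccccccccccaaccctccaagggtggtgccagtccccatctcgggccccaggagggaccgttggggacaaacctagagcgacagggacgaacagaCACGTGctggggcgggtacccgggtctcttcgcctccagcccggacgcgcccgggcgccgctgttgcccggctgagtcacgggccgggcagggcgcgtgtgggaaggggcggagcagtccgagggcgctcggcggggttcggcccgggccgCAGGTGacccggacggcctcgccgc
Cd34: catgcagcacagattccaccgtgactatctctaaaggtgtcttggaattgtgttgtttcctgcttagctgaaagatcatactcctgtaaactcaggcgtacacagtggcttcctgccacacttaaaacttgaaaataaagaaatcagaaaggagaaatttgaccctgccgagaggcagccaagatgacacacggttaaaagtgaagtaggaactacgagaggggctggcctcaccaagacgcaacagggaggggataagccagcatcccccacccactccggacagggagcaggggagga

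Of all 32851 promoter windows of this length, 72.3% held at least 1 E-box, so its presence sets none of these genes apart. The windows of Sdc3, Sdc4 and Cxcr4 held 0, and of 2 Calcr windows 1 held a single E-box. The first bases of the Chodl E-boxes lay at −222, −198, −107 and −98 from the RefSeq start, and those of Cdh15 at −236, −135, −32 and −2 from its own. The Chodl E-box at −198 overlapped TGGGAA, the core letters bound by RBPJ, the DNA-binding partner of Notch. TGGGAA, searched on both strands, was found in the windows of Chodl and Met, 1 in each, and in 25.6% of all windows. The GC box GGGCGG was also searched on both strands and was present in 35.7% of all windows. It occurred 4 times in Sdc4, 3 times each in Cdh15, Sdc3, Cxcr4 and Met, and 0 times in Chodl and Cd34. Of the 2 Calcr windows, 1 held a single GC box and the other held 0. TATAAA, searched likewise, was found in 13.6% of all windows and, of these genes, in Cxcr4 only, at 2 places. These matches describe the letters in these windows only.

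Megf10 encodes a transmembrane receptor with EGF-like repeats that has been linked to Notch signaling in SCs, and loss of the human gene causes a myopathy of early onset. The gene lies at chr18:57133090-57297467 of GRCm38. Its level was 3.82 and 4.16 CPM at 4 weeks, 2.32 and 2.57 CPM at 6 weeks, and 1.81, 1.45 and 1.70 CPM at 8 weeks. The libraries of the 3 ages did not overlap, and each later age stood below the one before. Against 4 weeks, Megf10 was lower at 6 weeks (log2 fold change −0.70, SE 0.18, edgeR adjusted p = 0.0441) and at 8 weeks (log2 fold change −1.27, 95% interval −1.65 to −0.89, edgeR adjusted p = 0.000897). The log2 fold change of −0.57 at 8 against 6 weeks (95% interval −0.96 to −0.17, edgeR adjusted p = 0.258) was not called. Only 2.26% of all genes tested had a lower log2 fold change at 8 against 4 weeks. The call at 8 against 4 weeks was kept under all 17 alternatives. The call at 6 against 4 weeks was lost with any 1 library of these ages left out, with edgeR adjusted p between 0.114 and 0.261. It was also lost with library totals (edgeR adjusted p = 0.0940) and with DESeq2 (adjusted p = 0.0911).

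Chodl encodes chondrolectin, a transmembrane protein with a C-type lectin domain that is known from fast motor neurons and from quiescent SCs. It lies at chr16:78930948-78951733 of GRCm38 and had 9.95 and 10.9 CPM at 4 weeks, 5.36 and 6.76 CPM at 6 weeks, and 6.61, 7.02 and 5.68 CPM at 8 weeks. Both 4-week libraries stood above all others, while the 6- and 8-week libraries overlapped. The log2 fold change was −0.78 at 6 against 4 weeks (SE 0.16, edgeR adjusted p = 0.0170) and −0.70 at 8 against 4 weeks (SE 0.14, edgeR adjusted p = 0.00661). It was 0.09 at 8 against 6 weeks, with a 95% interval of −0.23 to 0.41. The log2 change over the first interval, 4 to 6 weeks, was set against that over the second, 6 to 8 weeks: the difference was −0.87 (edgeR adjusted p = 0.248), so the intervals were not shown to differ. This test called 0 of the 10 surface genes, with 2 at an unadjusted p under 0.05 and 0 called by DESeq2 or limma-voom, and 0.0935% of all genes. Without replicate 2 at 4 weeks the calls at 6 and at 8 weeks were lost, with edgeR adjusted p of 0.136 and 0.0732. At 6 against 4 weeks the call was also lost without replicate 1 at 4 weeks (edgeR adjusted p = 0.0597) and without replicate 1 at 6 weeks (edgeR adjusted p = 0.175), as well as with library totals (edgeR adjusted p = 0.0536).

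Cd34 encodes a sialomucin found on SCs, on vessel endothelium and on fibro-adipogenic progenitors. Located at chr1:194938819-194961279 of GRCm38, it had 86.3 and 95.6 CPM at 4 weeks, 54.4 and 59.0 CPM at 6 weeks, and 64.6, 61.0 and 49.4 CPM at 8 weeks. As for Chodl, both 4-week libraries stood above all others, and the 6- and 8-week libraries overlapped. The log2 fold change was −0.68 at 6 against 4 weeks (SE 0.13, edgeR adjusted p = 0.0166) and −0.64 at 8 against 4 weeks (SE 0.12, edgeR adjusted p = 0.00488). For 8 against 6 weeks it was 0.04, with a 95% interval of −0.23 to 0.31. The difference between the first and the second interval was −0.72 (edgeR adjusted p = 0.256). With any 1 library of the ages compared left out, the call at 6 against 4 weeks was lost, with edgeR adjusted p between 0.0542 and 0.169, and without replicate 2 at 4 weeks the call at 8 weeks was lost as well (edgeR adjusted p = 0.0615). With library totals the adjusted p at 6 against 4 weeks was 0.0508 by edgeR. An antisense gene, Gm16897, shares 148 exon bases with Cd34, but reads were counted by strand and it had only 41 counts over all libraries.

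Like Cd34, 9 of 11 endothelial genes had log2 fold changes below 0 against 4 weeks at both later ages, and 2 had them above 0. Of the 11, 6 were called lower at 6 than at 4 weeks, where 3.76% of all genes tested were lower and 3.15% higher. At 8 against 4 weeks 5 were lower and 1, the VEGF receptor Flt1, was higher. There 8.95% of all genes tested were lower and 9.53% higher. The 11 endothelial genes summed to 299 to 320 CPM at 4 weeks, 232 to 235 CPM at 6 weeks and 238 to 267 CPM at 8 weeks. None of the 11 was at 0 in any library. The adhesion receptor Pecam1 had a log2 fold change of −0.79 at 6 against 4 weeks (edgeR adjusted p = 0.00930), and the endothelial cadherin Cdh5 one of −0.44 (edgeR adjusted p = 0.0450). In the same comparison Flt1 had 0.44 and Eng 0.16, and neither was called. Cd34 counts came to 28.8% and 29.9% of the counts of the endothelial list at 4 weeks, 23.2% and 25.5% at 6 weeks, and 25.0%, 22.8% and 20.8% at 8 weeks. All later libraries stood below both 4-week libraries in this ratio, which does not depend on library scaling. Of 8 genes of fibro-adipogenic progenitors, at 6 against 4 weeks Gsn was higher and Mfap5 lower, and at 8 against 4 weeks Gsn was higher and 3 (Lum, Ly6a and Mfap5) were lower. The shares over all genes are those given for the endothelial list. The 8 genes summed to 855 to 899 CPM at 4 weeks, 1078 to 1080 CPM at 6 weeks and 876 to 1199 CPM at 8 weeks. Gsn alone, which is also expressed by many other cells, made up 375 to 398 CPM of this sum at 4 weeks, 590.0 to 635 CPM at 6 weeks and 455 to 668 CPM at 8 weeks. The other 7 genes summed to 481 to 501 CPM at 4 weeks, 443 to 490.1 CPM at 6 weeks and 421 to 551 CPM at 8 weeks. The part of either cell type in the Cd34 difference was not tested.

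Vcam1 encodes an immunoglobulin-family adhesion receptor of SCs and activated endothelium that binds integrin α4β1 on other cells. The gene lies at chr3:116109949-116129688 of GRCm38. It had 6.64 and 5.55 CPM at 4 weeks, 4.27 and 4.61 CPM at 6 weeks, and 3.59, 3.39 and 3.40 CPM at 8 weeks. No libraries of different ages overlapped. At 8 against 4 weeks Vcam1 was lower (log2 fold change −0.81, 95% interval −1.12 to −0.51, edgeR adjusted p = 0.00277), and this call was kept under all 17 alternatives. At 6 against 4 weeks its log2 fold change of −0.45 was not called (edgeR adjusted p = 0.0900), nor was that of −0.36 at 8 against 6 weeks (edgeR adjusted p = 0.340). Vcam1 counts were 1.73% to 2.22% of those of the endothelial list at 4 weeks, 1.82% to 1.99% at 6 weeks, and 1.27% to 1.43% at 8 weeks. The part of endothelial cells in the Vcam1 difference was not tested.

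Cdh15 encodes M-cadherin, which joins SCs to the fiber beneath them. From chr8:122847966-122867397 of GRCm38, it had 7.17 and 6.88 CPM at 4 weeks, 7.06 and 7.83 CPM at 6 weeks, and 7.23, 8.87 and 7.96 CPM at 8 weeks. The 4- and 6-week libraries overlapped, and all 8-week libraries stood slightly above both at 4 weeks. The log2 fold change was 0.08 at 6 against 4 weeks (95% interval −0.22 to 0.39) and 0.19 at 8 against 4 weeks (95% interval −0.09 to 0.47), and neither was called. These intervals hold no decrease as large as the log2 fold changes of Megf10, Chodl, Cd34 or Vcam1 at 8 against 4 weeks. Pax7, the defining transcription factor of SCs, had a mean of 1.93 CPM at 4 weeks, 1.93 CPM at 6 weeks and 1.94 CPM at 8 weeks. Its log2 fold change at 8 against 4 weeks was 0.01, with a wide 95% interval of −0.47 to 0.49, since only 52 to 80 counts stood behind it in each library.

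The ratio of a gene's count to the Cdh15 count of the same library needs no scaling between libraries. Megf10 had 0.533 and 0.605 counts per Cdh15 count at 4 weeks, 0.329 and 0.329 at 6 weeks, and 0.250, 0.163 and 0.214 at 8 weeks. Chodl had 1.39 and 1.58 at 4 weeks, 0.759 and 0.863 at 6 weeks, and 0.914, 0.792 and 0.714 at 8 weeks. Vcam1 had 0.926 and 0.806 at 4 weeks, 0.605 and 0.589 at 6 weeks, and 0.496, 0.382 and 0.427 at 8 weeks. For these 3 genes, both 4-week ratios stood above all later ones, and the same held for Cd34, Sdc3 and Sdc4. Met had 3.63 and 3.79 counts per Cdh15 count at 4 weeks and 4.29 and 3.82 at 6 weeks. At 8 weeks Met had 4.70, 3.60 and 4.81, so its 4- and 8-week ratios overlapped, unlike its CPM. A ratio of this kind shows unequal change of the genes and not which of them changed.

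Of the other 9 genes of SC identity, 8 were tested, and Pax3 was too low. Heyl, a Notch target, was lower at 6 than at 4 weeks (log2 fold change −0.74, edgeR adjusted p = 0.0338). Myog, the myogenic factor of differentiating cells, was lower at 8 than at 4 weeks (log2 fold change −2.03, edgeR adjusted p = 0.000977). It had 6.13 and 11.5 CPM at 4 weeks, 3.68 and 5.36 CPM at 6 weeks, and 1.62, 2.77 and 2.09 CPM at 8 weeks. The other 6, Myf5, Myod1, Spry1, Hes1, Hey1 and the laminin receptor subunit Itga7, were not called between any ages. With Pax7 included, 1 of the 9 tested genes was called at 6 against 4 weeks and 1 at 8 against 4 weeks. Over all genes tested, 6.9% and 18.5% were called. The median log2 fold change of the 9 genes was 0.01 at 6 against 4 weeks and −0.23 at 8 against 4 weeks.

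**Figure D2:**
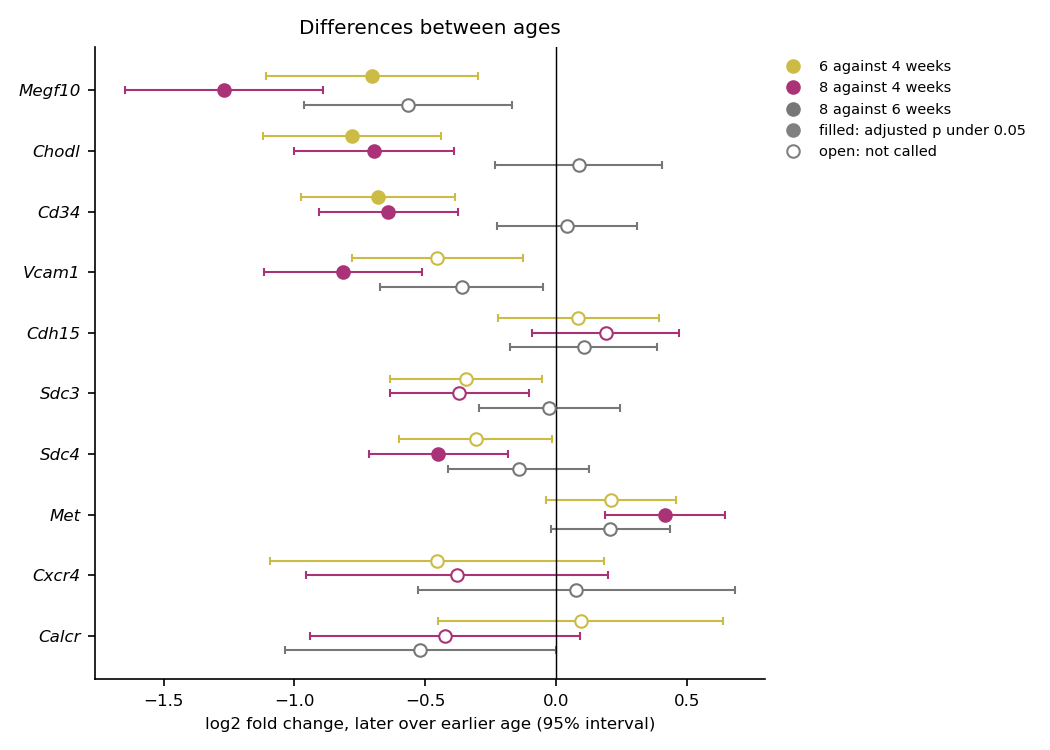
Log2 fold changes of the surface genes with 95% intervals (horizontal axis, later over earlier age) in the comparisons of 6 against 4, 8 against 4 and 8 against 6 weeks; filled points were called by edgeR at an adjusted p under 0.05. Megf10 at 8 against 4 weeks lies farthest to the left at −1.27, all points of 8 against 6 weeks are open, and Met at 8 against 4 weeks is the 1 filled point to the right of 0.

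The syndecans are transmembrane proteoglycans whose heparan sulfate chains hold growth factors at the cell surface. Sdc4 lies at chr2:164424247-164443887 of GRCm38. It had 25.0 and 21.1 CPM at 4 weeks, 20.1 and 17.2 CPM at 6 weeks, and 15.2, 18.2 and 17.2 CPM at 8 weeks. Both 4-week libraries stood above all others, and those at 6 and 8 weeks overlapped. Sdc4 was lower at 8 than at 4 weeks (log2 fold change −0.45, SE 0.12, edgeR adjusted p = 0.0258), but not called at 6 against 4 weeks (log2 fold change −0.31, edgeR adjusted p = 0.190). Its call at 8 weeks was lost without either 4-week library or without replicate 1 at 8 weeks, with edgeR adjusted p of 0.0558 to 0.214.

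Sdc3 lies at chr4:130792537-130826319 of GRCm38. It had 9.82 and 10.7 CPM at 4 weeks, 7.52 and 8.61 CPM at 6 weeks, and 8.55, 7.70 and 7.51 CPM at 8 weeks. Both 4-week libraries stood above all others, yet Sdc3 was called in no comparison. Its log2 fold change was −0.34 at 6 against 4 weeks (edgeR adjusted p = 0.143) and −0.37 at 8 against 4 weeks (95% interval −0.63 to −0.11, edgeR adjusted p = 0.0538). This last value lay close to the threshold and passed it in 3 of the 17 alternatives: library totals (adjusted p = 0.0331), the 10 genes with most counts left out (adjusted p = 0.0498) and at least 10 counts in every library (adjusted p = 0.0493), all by edgeR.

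Met encodes the receptor tyrosine kinase for hepatocyte growth factor, which activates quiescent SCs. At chr6:17463800-17573980 of GRCm38, the gene had 26.0 and 26.1 CPM at 4 weeks, 30.3 and 29.9 CPM at 6 weeks, and 34.0, 32.0 and 38.3 CPM at 8 weeks. The libraries of the 3 ages did not overlap, in an order that runs opposite to that of Megf10. Met was higher at 8 than at 4 weeks (log2 fold change 0.42, 95% interval 0.19 to 0.65, edgeR adjusted p = 0.0187). Neither step alone was called, with a log2 fold change of 0.21 at 6 against 4 weeks (edgeR adjusted p = 0.291) and of 0.21 at 8 against 6 weeks (edgeR adjusted p = 0.457). Of all genes tested, 85.2% had a lower log2 fold change than Met at 8 against 4 weeks. The call was lost without either 4-week library (edgeR adjusted p = 0.118 and 0.133) and where libraries were scaled by their totals alone (edgeR adjusted p = 0.280).

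Cxcr4 encodes the receptor of the chemokine CXCL12, which guides migrating muscle precursors. The gene lies at chr1:128588199-128592293 of GRCm38. It had 1.86 and 2.05 CPM at 4 weeks, 1.15 and 1.69 CPM at 6 weeks, and 1.94, 1.45 and 1.09 CPM at 8 weeks. The 8-week libraries spread across both other ages. Its log2 fold change was −0.45 at 6 against 4 weeks (95% interval −1.09 to 0.18) and −0.38 at 8 against 4 weeks (95% interval −0.95 to 0.20), and neither was called. Counts of 34 to 77 per library stood behind these levels, and the exact Poisson 95% interval of the lowest was 23.6 to 47.5 counts. Both intervals of the log2 fold change hold 0 as well as the values of Chodl, −0.78 at 6 weeks and −0.70 at 8 weeks. The Poisson interval covers counting error only.

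Calcr encodes the calcitonin receptor, which in mouse SCs maintains quiescence. The gene lies at chr6:3685680-3764714 of GRCm38. It had 1.14 and 1.20 CPM at 4 weeks, 1.24 and 1.26 CPM at 6 weeks, and 0.971, 0.862 and 0.770 CPM at 8 weeks. All 8-week libraries stood below all others, but the test called none of the differences. At 8 against 6 weeks the log2 fold change was −0.52, with a 95% interval of −1.04 to −0.001, an unadjusted p of 0.0495 and an edgeR adjusted p of 0.409. At 8 against 4 weeks it was −0.43 (95% interval −0.94 to 0.09, edgeR adjusted p = 0.237). Only 24 to 47 counts per library stood behind these values, and the exact Poisson 95% interval of the lowest was 15.4 to 35.7 counts.

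The Calcr gene also holds 2 microRNA genes on its own strand, which share no exon bases with it. One of them, Mir489, is known in mice as a microRNA of quiescent SCs, and its mature strands are shown because they lie within the gene of the receptor, outside its exons. The seed, bases 2 to 8, is in capitals.
mmu-miR-489-3p: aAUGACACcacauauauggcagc
mmu-miR-489-5p: uGUCAUAUgugugaugacacuuucu
The sequences are from RefSeq on GRCm38.p6, where the 3p strand lies at chr6:3721922-3721944 and the 5p strand at chr6:3721957-3721981, both on the minus strand. Their seeds differ. Over all 7 libraries Mir489 had 0 counts and Mir653, the other one, had 1, in libraries that were not made for small RNA, so neither was measured here.

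**Figure D3:**
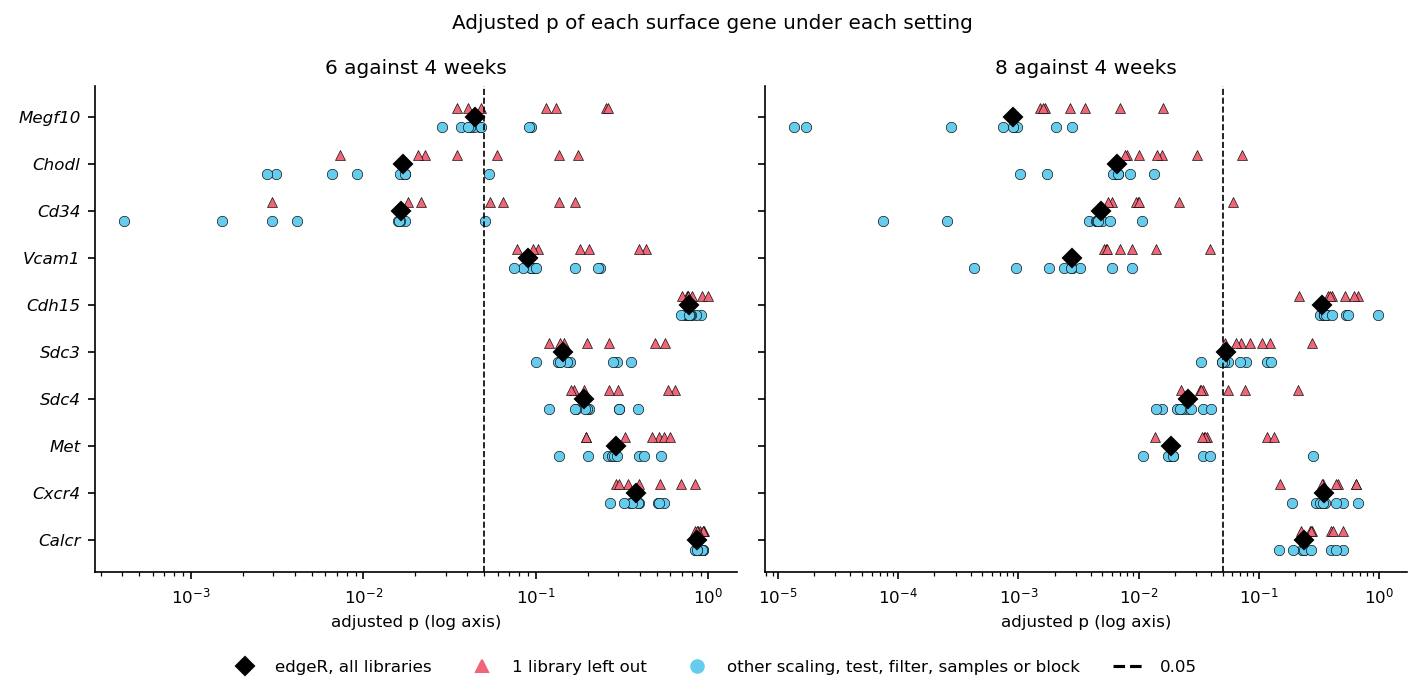
Adjusted p (log axis) of each surface gene at 6 against 4 weeks (left) and 8 against 4 weeks (right) with all libraries (diamonds), with 1 library left out (triangles) and with another scaling, test, filter, set of samples or replicate block (circles); the dashed line is 0.05. For Megf10 and Vcam1 at 8 against 4 weeks every symbol stands left of the line, while Megf10, Chodl and Cd34 at 6 against 4 weeks have triangles on both sides.

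Ligands, receptors and complex partners of the surface genes were read from 7 short lists with 42 genes in all, of which 37 were tested. At 6 against 4 weeks 3 were higher and 3 lower, and at 8 against 4 weeks 3 were higher and 9 lower, where 6.9% and 18.5% of all genes tested were called. The calls at 6 weeks (Cdh4, Jup and Fgfr1 higher, and Cdh2, Sdc2 and Col5a2 lower) depended on each library of the ages compared: without replicate 2 at 4 weeks 0 partners were called, and without replicate 1 at 4 weeks or either 6-week library 1 was. Without replicate 3 at 8 weeks, which also enters the estimate of spread, 11 were called. At 8 against 4 weeks the 12 calls became 7 without replicate 1 and 6 without replicate 2 at 4 weeks. The median log2 fold change of the partners was −0.17 at 6 against 4 weeks and −0.21 at 8 against 4 weeks, beside medians of −0.01 for all genes. At 8 against 6 weeks edgeR called 0 of 37 partners, with 8 at an unadjusted p under 0.05, while DESeq2 called 4 and limma-voom 0.

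The genes of type V collagen, whose chains act on the calcitonin receptor of mouse SCs, were lower at 8 than at 4 weeks. Col5a2 had 131.9 and 125.7 CPM at 4 weeks, 76.7 and 86.3 CPM at 6 weeks, and 65.8, 63.2 and 51.9 CPM at 8 weeks. It was lower at 6 weeks (log2 fold change −0.66, edgeR adjusted p = 0.0158) and at 8 weeks (log2 fold change −1.09, edgeR adjusted p = 0.000302) than at 4 weeks. Of the others, Col5a1 was lower at 8 than at 4 weeks with a log2 fold change of −0.80 (edgeR adjusted p = 0.000372) and Col5a3 with −0.65 (edgeR adjusted p = 0.00258). Ramp2, a co-receptor of calcitonin-type receptors, was lower at 8 than at 4 weeks as well (log2 fold change −0.55, edgeR adjusted p = 0.0175). Ramp1 and Calcrl were not called, and Ramp3 was too low to test.

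Fzd7, a Wnt receptor that forms a complex with Sdc4 on mouse SCs, moved opposite to Sdc4. Fzd7 had 22.2 and 20.3 CPM at 4 weeks, 31.0 and 26.2 CPM at 6 weeks, and 37.6, 45.8 and 42.2 CPM at 8 weeks. The libraries of the 3 ages did not overlap, and Fzd7 was higher at 8 than at 4 weeks (log2 fold change 0.98, SE 0.12, edgeR adjusted p = 0.000604). Fgfr1, a fibroblast growth factor receptor that uses syndecan chains, was higher at 6 weeks (log2 fold change 0.45, edgeR adjusted p = 0.0264) and at 8 weeks (log2 fold change 0.33, edgeR adjusted p = 0.0311) than at 4 weeks. The syndecan Sdc2 was lower at 6 weeks (log2 fold change −0.57, edgeR adjusted p = 0.0288) and at 8 weeks (log2 fold change −0.73, edgeR adjusted p = 0.00256). Sdcbp, the adaptor syntenin that binds syndecan tails, was lower at 8 weeks (log2 fold change −0.40, edgeR adjusted p = 0.0162).

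Other cadherins were called where Cdh15 was not. Cdh2, or N-cadherin, had 2.15 and 2.69 CPM at 4 weeks, 1.24 and 1.21 CPM at 6 weeks, and 1.54, 1.35 and 1.54 CPM at 8 weeks. It was lower than at 4 weeks both at 6 weeks (log2 fold change −0.99, edgeR adjusted p = 0.0265) and at 8 weeks (log2 fold change −0.71, edgeR adjusted p = 0.0295). Cdh4, or R-cadherin, had 9.26 and 14.3 CPM at 6 weeks, against 4.46 and 6.16 CPM at 4 weeks (log2 fold change 1.15, edgeR adjusted p = 0.0205). Jup, or plakoglobin, which links cadherins to the cytoskeleton, was also higher at 6 than at 4 weeks (log2 fold change 0.67, edgeR adjusted p = 0.0142). At 8 against 4 weeks neither Cdh4 (log2 fold change 0.69, edgeR adjusted p = 0.0564) nor Jup (log2 fold change 0.35, edgeR adjusted p = 0.0566) was called. The catenin Ctnnb1, the gene of this list with the highest CPM at 162.1, was not called between any ages.

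Among the ligands themselves, Hgf had a mean of 0.487 CPM and Cxcl12 of 36.3 CPM over all libraries, and neither was called between any ages. Gab1, the docking adaptor of Met, was higher at 8 than at 4 weeks (log2 fold change 0.33, edgeR adjusted p = 0.0442), as was Met. Plau, the protease gene with the highest CPM of the Hgf list at 19.0, was not called. Ackr3, a scavenging receptor of CXCL12, was lower at 8 than at 4 weeks (log2 fold change −0.60, edgeR adjusted p = 0.0106). Itgb1, the β1 integrin chain that pairs with α4 to bind Vcam1, was lower at 8 than at 4 weeks (log2 fold change −0.45, edgeR adjusted p = 0.00779), while its α4 partner Itga4 had a log2 fold change of 0.05 and was not called. None of the 5 relatives and partners of Megf10, of which Notch3 had the highest CPM at 18.4, was called between any ages.

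**Figure D4:**
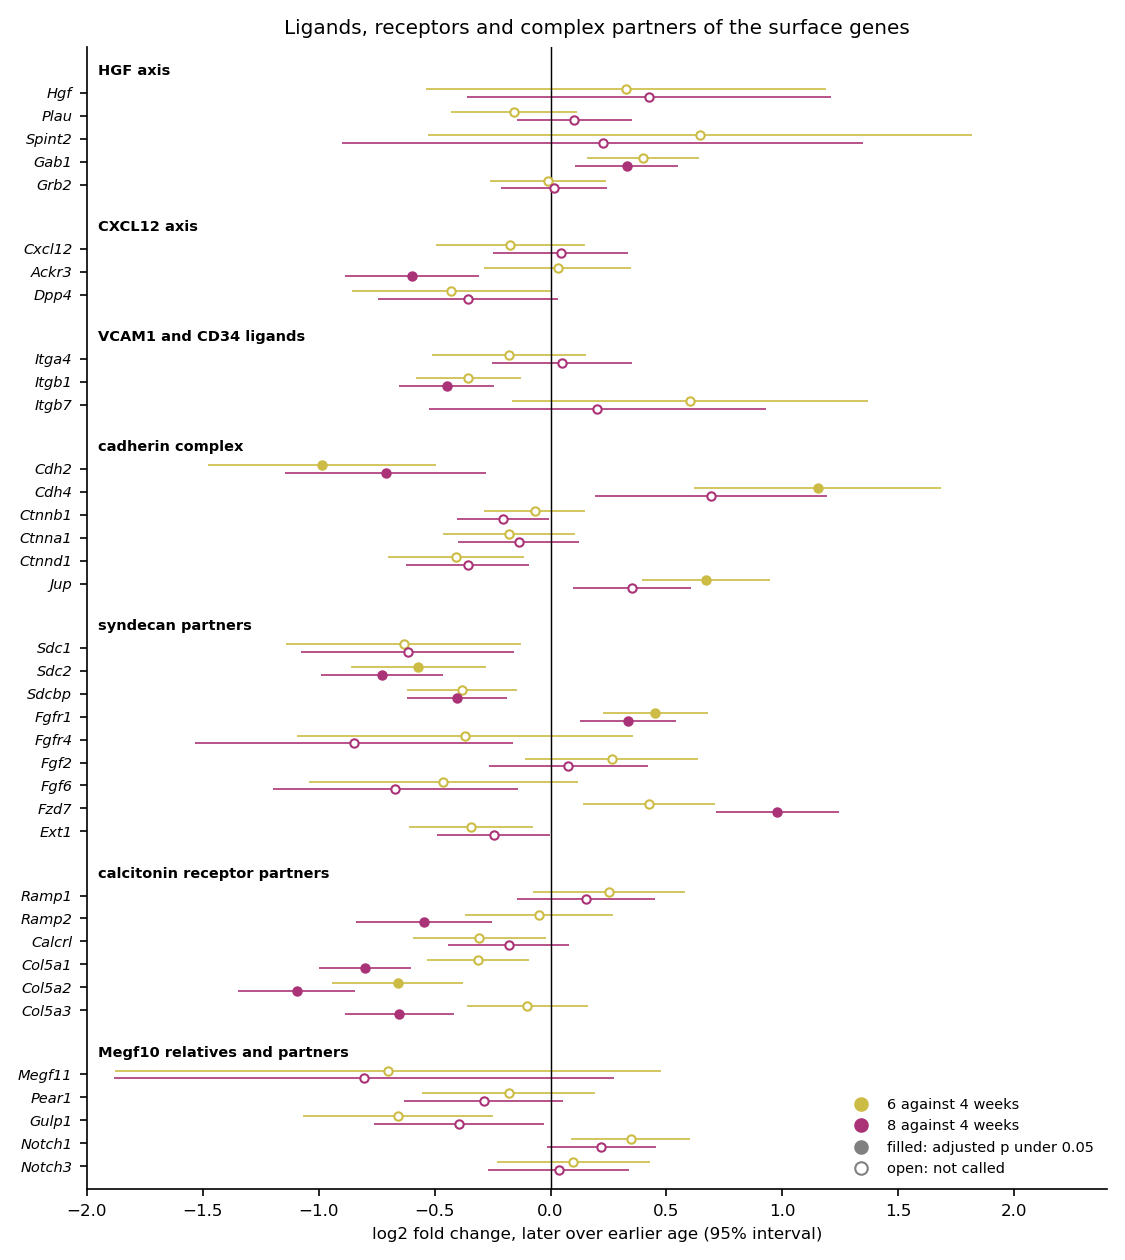
Log2 fold changes of the 37 tested partner genes with 95% intervals (horizontal axis, later over earlier age), in 7 lists, at 6 against 4 and 8 against 4 weeks; filled points were called by edgeR at an adjusted p under 0.05. The 3 collagen V genes are filled and left of 0 at 8 against 4 weeks, and Fzd7 is filled at 0.98.

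The summed level of the 10 surface genes was 178 to 184 CPM at 4 weeks, 134 to 139 CPM at 6 weeks, and 133 to 144 CPM at 8 weeks, with Cd34 as the gene with most CPM in every library. Cd34 alone had means of 90.94 CPM at 4 weeks, 56.67 CPM at 6 weeks and 58.3 CPM at 8 weeks. The mean sums of all 10 genes were 180.9, 136.5 and 139.8 CPM, so this sum mainly follows Cd34. Other marker lists are given beside the surface gene sum. Over all genes tested, 3.76% were lower and 3.15% higher at 6 against 4 weeks. At 8 against 4 weeks 8.95% of all genes were lower and 9.53% higher. Of the 5 cycling genes tested, 4 were lower at 6 than at 4 weeks and 5 at 8 than at 4 weeks, and the list of 6 summed to 9.66 and 19.2 CPM at 4 weeks, 1.36 and 2.49 CPM at 6 weeks, and 2.50 to 3.67 CPM at 8 weeks. Macrophage markers summed to 98.7 to 110.2 CPM at 4 weeks, 71.6 to 79.3 CPM at 6 weeks and 57.1 to 84.0 CPM at 8 weeks, with 1 of 9 lower at 6 weeks and 2 of 9 lower at 8 weeks, where 3.76% and 8.95% of all genes tested were lower (6.9% and 18.5% called in either direction). Lymphocyte and neutrophil markers summed to no more than 8.10 CPM in any library, with Cd3e and Ly6g at 0 throughout. Markers of muscle fibers, the labeled tissue, summed to 152600 to 172600 CPM at 4 weeks, 177700 to 182800 CPM at 6 weeks and 215500 to 240800 CPM at 8 weeks. The ages did not overlap in this sum, in an order opposite to that of the surface gene sum between 4 weeks and both later ages. Ttn made up most of the sum, with means of 111400 CPM at 4 weeks, 124700 at 6 weeks and 164100 at 8 weeks. Myh4 had means of 27570, 31020 and 39610 CPM. Acta1, with means of 11090, 11250 and 11550 CPM, overlapped between all ages, as did Ckm and Myh1. Myh2 overlapped except that it stood higher at 6 than at 4 weeks. Of these 6 markers 0 were called at 6 against 4 weeks, and at 8 against 4 weeks 2 were higher, Ttn (log2 fold change 0.56, edgeR adjusted p = 0.0201) and Myh4 (log2 fold change 0.52, edgeR adjusted p = 0.0193). None of the 6 was at 0 in any library. At 6 against 4 weeks, 3 of 5 erythroid, 3 of 5 tenocyte and 1 of 6 Schwann cell markers were lower. At 8 against 4 weeks these counts were 5, 2 and 1. Of 8 pericyte and smooth muscle markers 1 was lower at 6 weeks, and 2 were lower and 2 higher at 8 weeks. Of 4 adipocyte markers 0 were called at 6 weeks and 1 was higher at 8 weeks. The part of other cells and of fibers in the surface gene differences was not tested.

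**Figure D5:**
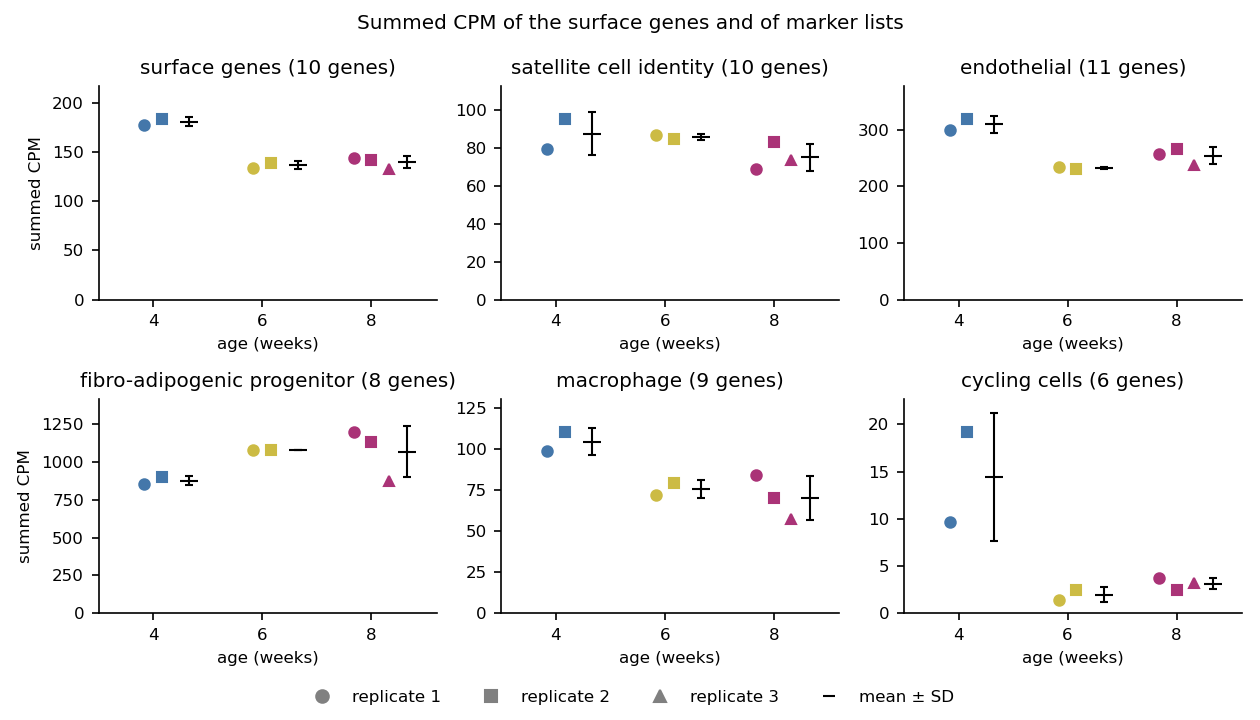
Summed CPM (vertical axes from 0) of the surface genes and of marker lists in each library at 4, 6 and 8 weeks (horizontal axes), with the mean ± SD (n = 2, 2 and 3) beside the points. The surface gene and endothelial sums are highest in the 4-week libraries, and the sum of the SC identity list overlaps between 4 weeks and both later ages. Most of the SC identity sum was Itga7, with means of 47.99, 48.31 and 43.65 CPM at 4, 6 and 8 weeks. The mean sums of that list were 87.3, 85.66 and 74.96 CPM, so they mainly follow Itga7.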

How the data were processed

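Gene counts of 7 gastrocnemius libraries were used. The authors trimmed single-end reads, aligned them with STAR to GRCm38 and counted them by strand over the exons of each gene name with featureCounts, and these deposited raw counts were not normalized. The authors' columns of DESeq2, PANTHER and IPA results and their normalized and rlog values were not used. Symbols turned into dates (26, with 0.0532% of counts) were not named. The test used edgeR 4.0.16 in R 4.3.3 (filterByExpr with a minimum count of 10, TMM factors, quasi-likelihood F test, a mean per age). The standard error was taken as log2 fold change / √F. CPM per kb and gene bounds use GENCODE on GRCm38 (exon union). Alternatives, with DESeq2 1.42.0, limma 3.58.1 and others of scaling, filter, samples, threshold and replicate block, and each library left out in turn, are given at the end. The code was tested on simulated counts. Python 3.11.15 and matplotlib 3.10.9 drew the figures.

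All 10 surface genes were named, and of the partner lists the genes called in any comparison and the gene with the highest CPM per list. The rule let a list's defining marker be named but did not say which gene that was. Pax7, Pecam1 and Cdh5 were taken as defining markers. Ramp1, Ramp3, Calcrl, Hgf and Itga4, the other genes of SC identity, and Flt1, Gsn, Lum, Ly6a, Mfap5, Ttn, Myh4, Cd3e and Ly6g were named after their values were seen. So were Eng, Acta1, Ckm, Myh1 and Myh2. For each surface gene called, the 3 tested genes most like it by Pearson r are given, except 1 that is not reported here. The genes and lists were chosen with earlier results of these data known.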

Additional observations from a re-analysis of the deposited data

How the results depend on the processing

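With 2 or 3 libraries per age, 1 library often decides a call. Of 510 combinations of a surface gene, a comparison between ages and 1 of 17 alternatives, 466 kept direction and side of the threshold, 28 lost a call, 3 gained one and 13 changed sign; 0 of those 13 was a call. Surface genes called at 6 against 4 weeks, 3 with all libraries, were 0 with library totals or an adjusted p under 0.01, and 0 to 3 with 1 library left out, 0 without either 4-week library or replicate 1 at 6 weeks and 1 without replicate 2 at 6 weeks. At 8 against 4 weeks they were 6, and 2 to 6 with 1 library left out, 2 without replicate 2 at 4 weeks. Partner genes called at 6 against 4 weeks, 6 with all libraries, were 3 with library totals, 12 with only the ages compared, 0 at an adjusted p under 0.01, and 0 to 11 with 1 library left out, 0 without replicate 2 at 4 weeks, 1 without replicate 1 at 4 weeks or either 6-week library, and 11 without replicate 3 at 8 weeks. At 8 against 4 weeks they were 12, and 6 at an adjusted p under 0.01 and 6 to 12 with 1 library left out, 7 without replicate 1 and 6 without replicate 2 at 4 weeks. At 8 against 6 weeks they were 0, but 2 with library totals and 4 with DESeq2 or with no filter. The change from 4 to 6 weeks minus that from 6 to 8 weeks was called for 0 partners, but for 2 with DESeq2 or with no filter. Over all genes the calls ranged from 50 to 1826 at 6 against 4 weeks, beside 1034, from 786 to 2977 at 8 against 4 weeks, beside 2768, and from 8 to 232 at 8 against 6 weeks, beside 28. The cause of these shifts was not tested.

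Signs changed only where values were near 0. At 8 against 6 weeks library totals gave log2 fold changes of −0.092 for Chodl, −0.13 for Cd34, −0.0705 for Cdh15 and −0.11 for Cxcr4. With 1 library left out they were −0.0714 to 0.2556 for Chodl, −0.0386 to 0.1474 for Cd34, −0.1211 to 0.0644 for Sdc3 and −0.1688 to 0.3817 for Cxcr4. The difference of the intervals for Megf10 was 0.0496 with library totals and −0.2809 to 0.0095 with 1 library left out. Library totals moved the median of all genes at 8 against 4 weeks to −0.20 and the share of higher calls to 18.4%, against −0.01 and 51.6%.

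Replicate numbers recur across ages, and the labels name no pairing. The deviations of same-numbered libraries correlated at −0.09 to 0.04. With 2 libraries at 4 and at 6 weeks, deviations within an age mirror each other, so this cannot decide whether samples were paired. Over all genes, a replicate block gave 772 higher and 758 lower at 6 against 4 weeks, beside 471 and 563 without it. A replicate block gave 11 partner genes at 6 against 4 weeks, 1 partner gene for the difference of the intervals, and a log2 fold change of 0.0138 for Sdc3 at 8 against 6 weeks.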

Other observations

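The genes most like each called surface gene in log2 CPM over the 7 libraries were picked from 14976 by that likeness, so the coefficients are high by choice and serve as a description. For Megf10 they were the collagen-modifying enzyme Plod2 (Pearson r = 0.999), the hyaluronan receptor Lyve1 (0.988) and the matrix proteoglycan Lum (0.988). For Chodl they were Smim7 (0.995), the sialyltransferase St6gal1 (0.995) and the semaphorin Sema3b (0.991). For Cd34 they included Gxylt2 (0.996) and the matrix peroxidase Pxdn (0.996). For Vcam1 they were Obfc1 (0.989), Arl16 (0.987) and the translation factor Eif4a2 (0.985). For Sdc4 they were Dmap1 (0.988), Snhg5 (0.984) and the insulin receptor substrate Irs1 (0.984). For Met they were the nuclear receptor Rora (0.997), the arrestin Arrb1 (0.995) and Epc2 (0.991).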
